A study of Mus musculus with 8 samples.

Results

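The genes of the LIF receptor and Stat3 pathway were followed in the c-Jun ChIP-seq of 2 mouse primed pluripotent cell lines. The members were 7 protein-coding genes of 21000, namely Lifr, Osmr, Il6st, Jak1, Stat3, Socs3 and Pim1. A peak was assigned to a gene when its centre lay in the gene body or within 50 kb of any annotated transcription start site (TSS) of that gene. By this rule 32 of 16166 EpiSC peaks and 14 of 6032 kEpiSC peaks belonged to the members.

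LIF is a cytokine of the interleukin-6 family that keeps mouse embryonic stem cells in the naive state. It binds the receptor Lifr, which pairs with the signal-transducing chain gp130 encoded by Il6st, and the kinase Jak1 on these receptors phosphorylates the transcription factor Stat3. Socs3 and Pim1 are direct Stat3 targets, and Socs3 feeds back to block gp130 and the Jak kinases. c-Jun is a subunit of the AP-1 transcription factor, which binds the sequence TGAGTCA, and its reverse complement TGACTCA, as a dimer of Jun and Fos family proteins.

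EpiSCs are wild type epiblast stem cells, and kEpiSCs are the EpiSC line with an added Klf4 transgene. The study names an Oct4-GFP reporter in kEpiSCs, and the OG2 males that its methods name for EpiSC derivation carry this reporter too. The study describes the transgene as driven by a CAG promoter in its results and as a lentiviral Klf4-IRES-neo vector selected with G418 in its methods. The labels give the strain CBA/CaJ X C57BL/6J for the EpiSC c-Jun libraries and no strain for the other libraries, while the methods name another cross for EpiSC derivation. The labels list the same feeder-free FN medium with Activin A and bFGF for all libraries, and LIF is not among its components. Each line had 2 c-Jun ChIP and 2 input libraries. The labels name c-Jun in the antibody field and H3K27ac in the protocol text, and the methods name c-Jun. A single peak list was deposited for each line, so no value per replicate exists here. No difference between the lines or between genes could be tested, and all intervals cover counting error only. Those of the fold cover the ChIP reads alone, with the background held fixed. The labels attach each list to the first ChIP replicate, and whether it pools both replicates is not given in the sources used here.

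The stretches around the summits of the strongest, shared and kEpiSC-only peaks are given on the plus strand of mm10 (GRCm38.p6). The kEpiSC-only peak in a Cavin1 5′ UTR exon is left out. The stretches show whether an AP-1 site lies close to these summits, and some member peaks without a stretch here also hold one. The first set holds an exact site, and capitals mark it.
Stat3, highest EpiSC peak, chr11:100974515-100974595: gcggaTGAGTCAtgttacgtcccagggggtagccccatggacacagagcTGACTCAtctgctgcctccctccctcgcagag
Stat3, both lines, chr11:100962518-100962598: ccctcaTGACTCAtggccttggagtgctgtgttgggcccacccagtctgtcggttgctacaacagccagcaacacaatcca
Jak1, both lines, chr4:101202813-101202893: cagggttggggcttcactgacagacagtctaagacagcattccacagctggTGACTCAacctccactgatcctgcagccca
Pim1, highest EpiSC peak, chr17:29485999-29486079: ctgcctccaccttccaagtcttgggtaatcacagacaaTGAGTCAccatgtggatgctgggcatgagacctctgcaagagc
Socs3, both lines, chr11:118012739-118012819: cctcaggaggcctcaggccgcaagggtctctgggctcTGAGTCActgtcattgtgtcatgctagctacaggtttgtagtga
Il6st, kEpiSC list only, chr13:112447276-112447356: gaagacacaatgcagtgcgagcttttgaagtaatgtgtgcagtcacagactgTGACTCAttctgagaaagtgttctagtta
Socs3, kEpiSC list only, chr11:117983928-117984008: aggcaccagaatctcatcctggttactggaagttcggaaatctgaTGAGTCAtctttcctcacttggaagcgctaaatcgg
Pim1, kEpiSC list only, chr17:29447411-29447497: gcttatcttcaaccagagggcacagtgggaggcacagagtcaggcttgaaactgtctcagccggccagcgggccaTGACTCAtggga
In the second set no exact site lay in the stretch, and capitals mark each match to it with 1 base changed. Stretches of peaks in both lines are centred on the EpiSC summit. The far downstream Socs3 stretch and the marked Lifr match lie outside the kEpiSC peak.
Il6st, both lines, chr13:112461335-112461415: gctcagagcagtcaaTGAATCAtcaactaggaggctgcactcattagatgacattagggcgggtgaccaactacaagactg
Lifr, both lines, chr15:7115247-7115327: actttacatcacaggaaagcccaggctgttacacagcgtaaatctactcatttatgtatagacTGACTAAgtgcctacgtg
Socs3, far downstream, both lines, chr11:117934357-117934437: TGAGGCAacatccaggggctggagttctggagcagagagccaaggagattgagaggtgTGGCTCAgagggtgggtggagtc
Pim1, distal, both lines, chr17:29459627-29459707: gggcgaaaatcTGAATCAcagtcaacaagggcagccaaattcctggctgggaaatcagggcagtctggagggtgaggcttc
The third set held no match within 1 base in the stretch shown, which is 81 bp centred on the summit. Of these peaks, those in the introns of Lifr, Pgs1 and Pim1 held an exact site farther from the summit.
Lifr, highest EpiSC peak, chr15:7137677-7137757: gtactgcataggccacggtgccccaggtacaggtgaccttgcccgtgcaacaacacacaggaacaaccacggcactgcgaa
Socs3, downstream, both lines, chr11:117949843-117949923: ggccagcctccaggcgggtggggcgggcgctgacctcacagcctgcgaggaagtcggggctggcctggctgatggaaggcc
Socs3, Pgs1 intron 1, both lines, chr11:117990100-117990180: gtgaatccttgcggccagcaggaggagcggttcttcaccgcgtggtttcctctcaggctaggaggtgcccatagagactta
Pim1, intron 5, both lines, chr17:29494310-29494390: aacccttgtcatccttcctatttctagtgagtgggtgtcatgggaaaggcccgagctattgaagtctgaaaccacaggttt

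c-Jun peaks were present at 6 of the 7 members in EpiSCs and at 6 of 7 in kEpiSCs. By the same rule, 52.8% of all protein-coding genes had a peak in EpiSCs and 28.7% in kEpiSCs. Peaks within 10 kb of a TSS were found at 4 members in EpiSCs (Lifr, Il6st, Socs3 and Pim1), against 21.8% of all genes, and at 2 in kEpiSCs (Il6st and Pim1), against 8.27% of all genes. Socs3 had the most peaks with 9 in EpiSCs and 5 in kEpiSCs, followed by Pim1 with 7 and 3, Il6st with 6 and 2, Stat3 with 5 and 2, Lifr with 3 and 1, and Jak1 with 2 and 1. Osmr had none in either list. At least 9 EpiSC peaks were found at 1.11% of protein-coding genes, at least 7 at 2.50% and at least 6 at 4.04%, whereas 18.5% of genes had as many as Lifr and 31.1% as many as Jak1. In kEpiSCs 0.890% of genes had as many peaks as Socs3, 4.08% as many as Pim1, 10.3% as many as Il6st and Stat3, and 28.7% as many as Lifr and Jak1. The mean over all protein-coding genes was 1.32 peaks in EpiSCs and 0.469 in kEpiSCs. These counts include peaks that lie nearer to another gene, as described for each locus.

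**Figure D1:**
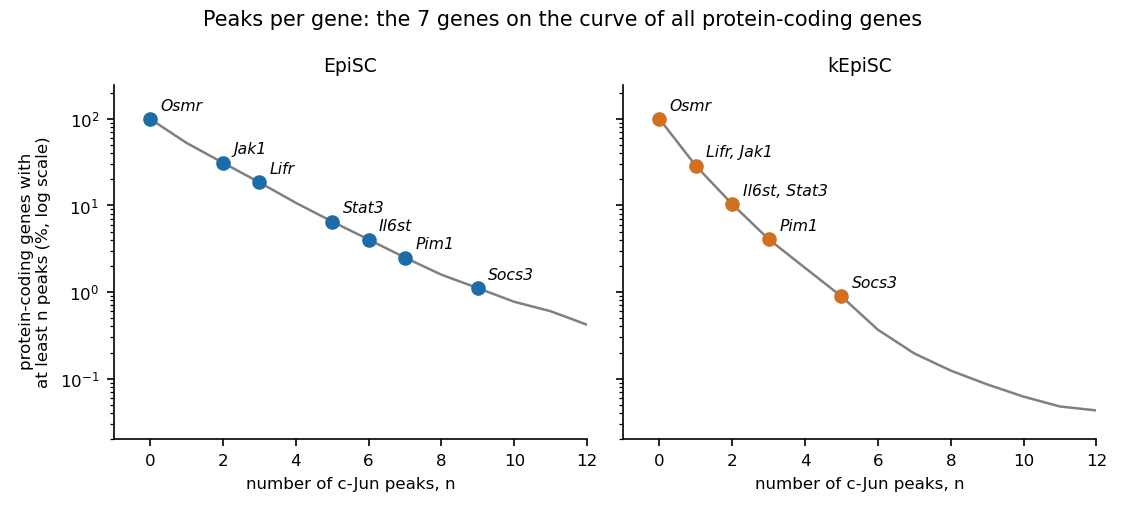
The x axis is the number of c-Jun peaks of a gene (gene body or within 50 kb of a TSS) and the y axis the percentage of protein-coding genes with at least that many, on a log scale, for EpiSCs (left) and kEpiSCs (right). The grey line is the curve over 21000 genes and the points are the 7 members, with Socs3 farthest to the right in both lists at 9 and 5 peaks and Osmr at 0.

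The peaks at the members were enriched over the local background by a median fold of 6.16 in EpiSCs (3.60 to 16.4, n = 32), which is also the median of all EpiSC peaks. In kEpiSCs it was 6.89 (3.95 to 11.9, n = 14) against 7.23 for all kEpiSC peaks. The number of ChIP reads at the summit, solved from the fold and p-value of each peak, had a median of 10 in EpiSCs and 14 in kEpiSCs, the same as in the whole lists. Of the 32 EpiSC peaks 17 lay between genes, 14 in a gene body and 1 in a promoter, taken as 1000 bp upstream to 100 bp downstream of a TSS, against 41.4%, 48.8% and 9.84% of all EpiSC peaks. The gene bodies were mostly not those of the members, since 3 EpiSC peaks lay in the body of a member (1 each in Lifr, Jak1 and Pim1).

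**Figure D2:**
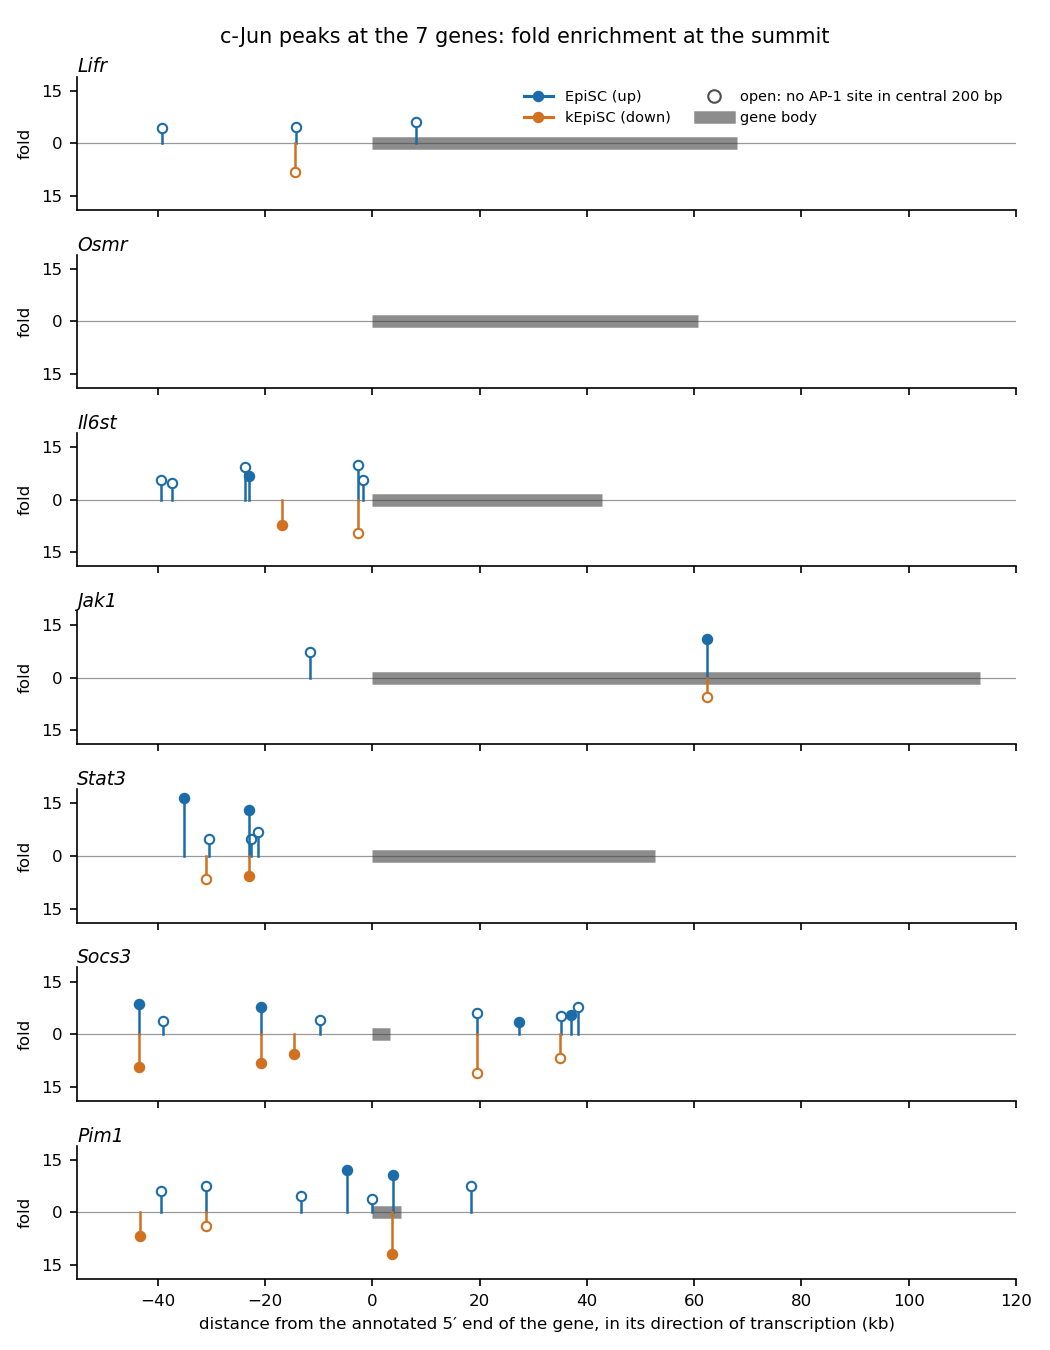
Each panel is 1 of the 7 genes, with the distance from its annotated 5′ end in its direction of transcription on the x axis (kb) and the fold enrichment of each c-Jun peak on the y axis, EpiSC upward and kEpiSC downward. Filled points hold an exact AP-1 site in the central 200 bp, the grey bar is the gene body, and the panels show the Il6st and Stat3 peaks upstream of the gene, the Socs3 peaks on either side of it and the empty Osmr panel.

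Lifr encodes the LIF receptor chain that gives the complex its specificity, on chromosome 15 with 2 annotated TSSs. In EpiSCs its highest peak had a fold of 6.16 with 8 reads and lay in intron 1 of the longer transcript, 2797 bp upstream of the second TSS (chr15:7137617-7137872). Upstream of the gene, a peak 14279 bp from the TSS had a fold of 4.66 with 6 reads (chr15:7115228-7115358), and another 39150 bp away had a fold of 4.23 with 7 reads. The peak 14279 bp upstream was also called in kEpiSCs, where its fold was 8.32 with 14 reads (chr15:7115150-7115289). The counting intervals of the fold, 2.13 to 9.36 in EpiSCs and 4.87 to 13.5 in kEpiSCs, overlapped. None of the 4 peaks at Lifr held an exact AP-1 site in its central 200 bp, and each held a match with 1 base changed there. With 1 changed base allowed, 78.3% of all EpiSC peaks and 86.4% of all kEpiSC peaks had a match. Searched over its whole width, the intron 1 peak held an exact site near its left edge, starting at 7137642.

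Osmr, which encodes the oncostatin M receptor chain that also pairs with gp130, lies next to Lifr on chromosome 15. No c-Jun peak of either list lay in its body or within 50 kb of its TSS. The nearest lay 160 kb away between the 2 genes, where its nearest TSS was that of Lifr, with a fold of 6.16 in EpiSCs (chr15:7034278-7034394) and 6.31 in kEpiSCs (chr15:7034287-7034463).

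Il6st encodes gp130, the chain shared by the receptors of the interleukin-6 family, on chromosome 13. Its 6 EpiSC peaks and 2 kEpiSC peaks all lay upstream of its TSS, from 1720 to 39404 bp away, with no peak in the gene body, and Il6st had the nearest TSS to all of them. The highest EpiSC peak had a fold of 9.90 with 16 reads, 2752 bp upstream (chr13:112461064-112461572). The same region had a fold of 9.41 with 16 reads in kEpiSCs (chr13:112461288-112461569). These values were close, with counting intervals of 5.91 to 15.7 and 5.68 to 14.8. The region did not hold an exact AP-1 site in its central 200 bp and held TGAATCA, 1 base away from it, 22 bp left of the EpiSC summit. Nearest to the TSS, 1720 bp upstream, an EpiSC peak had a fold of 5.64 with 11 reads, over a background of 2.44 times the genome-wide level. Farther upstream lay a pair of EpiSC peaks with folds of 9.29 and 6.75, 23825 and 23066 bp from the TSS, of which the lower held TGACTCA 22 bp from its summit. Another pair, with folds of 4.79 and 5.47, lay 37270 and 39404 bp away. In kEpiSCs a peak absent from the EpiSC list lay 16754 bp upstream, with a fold of 7.09 and 12 reads (chr13:112447236-112447396). It held TGACTCA 15 bp from its summit and 2 matches to the STAT motif, TTCAACGAA and TTCTGAGAA, the second of which starts directly after the AP-1 site.

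Jak1 encodes the main Jak kinase of gp130 receptors, on the minus strand of chromosome 4. Its highest EpiSC peak had a fold of 11.1 with 20 reads and lay in intron 1 of 24, 62309 bp from the nearest Jak1 TSS (chr4:101202739-101203089), with TGACTCA 14 bp from the summit and 2 more exact sites toward its left edge. In kEpiSCs the same region had a fold of 5.50, also with 20 reads (chr4:101202778-101203164). The kEpiSC background there was 4.72 times the genome-wide one, against 1.93 times in EpiSCs. The counting intervals were 6.99 to 16.9 in EpiSCs and 3.49 to 8.32 in kEpiSCs. Upstream of the gene, 11569 bp from the TSS, an EpiSC peak had a fold of 7.28 with 10 reads, and kEpiSCs had none.

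Stat3, the transcription factor of the pathway, lies on the minus strand of chromosome 11. All 5 EpiSC peaks and both kEpiSC peaks assigned to it lay 21280 to 35026 bp upstream of its TSS, in or beside Cavin1, a gene for a coat protein of caveolae. The nearest TSS was that of Cavin1 for every one of them, and no peak lay in the Stat3 body or within 10 kb of its TSS. The EpiSC peak between genes 35026 bp upstream had the highest fold of all member peaks, 16.4 with 23 reads (chr11:100974415-100974716). Of all EpiSC peaks 1.35% had a higher fold. It held 2 exact AP-1 sites, 32 bp left and 12 bp right of the summit, and no kEpiSC peak overlapped it. In Cavin1 intron 1 an EpiSC peak with a fold of 13.0 and 20 reads (chr11:100962478-100962652) was matched by a kEpiSC peak with a fold of 5.76 and 21 reads (chr11:100962488-100962639). Here too the kEpiSC background was 4.72 times the genome-wide one, against 1.33 times in EpiSCs, and the counting intervals were 8.19 to 19.8 and 3.69 to 8.63. This region held TGACTCA and a Klf motif match, CCACCCCC. The other 3 EpiSC peaks, with folds of 6.84, 4.79 and 4.76, also lay in this intron. A kEpiSC peak with a fold of 6.45 and 11 reads lay in the promoter of Cavin1 (chr11:100970487-100970605) and overlapped no EpiSC peak. It held no AP-1 site, and the closest match in its central 200 bp had 2 bases changed.

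Socs3 is a short gene on the minus strand of chromosome 11, and its product is the feedback inhibitor of gp130 signalling. Its 9 EpiSC and 5 kEpiSC peaks flanked the gene on either side, and none lay in its body. The closest EpiSC peak was 9761 bp upstream, with a fold of 4.16 and 7 reads. Its nearest TSS was that of Pgs1, a gene of mitochondrial phospholipid synthesis. Pgs1 also had the nearest TSS to every other peak upstream of Socs3 in both lists. The closest kEpiSC peak was 14650 bp upstream with a fold of 5.60 and 9 reads (chr11:117983921-117984110), held TGAGTCA 8 bp from its summit and was absent from the EpiSC list. Farther upstream, 3 EpiSC peaks lay inside Pgs1. The most distant was also the highest of the EpiSC peaks at Socs3, with a fold of 8.47 and 15 reads (chr11:118012682-118012944), and its summit coincided with the AP-1 site TGAGTCA. In kEpiSCs it had a fold of 9.41 with 16 reads. In Pgs1 intron 1 the fold was 7.67 with 12 reads in EpiSCs (chr11:117990056-117990311) and 8.23 with 14 reads in kEpiSCs, with TGACTCA 107 bp from the EpiSC summit and the STAT match TTCTCTGAA beside it. The peak in Pgs1 intron 7 that was called in EpiSCs alone had a fold of 3.70 with 6 reads.

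Downstream of Socs3, 5 EpiSC peaks lay 19457 to 38331 bp from the TSS, with Socs3 as their nearest TSS. The one closest to the gene had a fold of 6.12 with 16 reads in EpiSCs (chr11:117949771-117950046) and 11.0 with 19 reads in kEpiSCs (chr11:117949637-117950037), the highest kEpiSC fold at Socs3. At this region the higher background was in EpiSCs, 3.85 times the genome-wide one, and the counting intervals were 3.65 to 9.71 and 6.93 to 16.9. The peak 35121 bp away was also shared, with folds of 5.17 and 6.69, and its summits lay 124 bp apart. The remaining folds were 7.83, 5.40 and 3.60, and the peaks of 5.40 and 3.60 each held TGACTCA.

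Pim1 encodes a serine/threonine kinase induced by Stat3, on chromosome 17. It was the only member with a peak in its own promoter, a low EpiSC peak centred 35 bp from the TSS with a fold of 3.85 and 6 reads (chr17:29490643-29490856). Centred in intron 5, a peak was present in both lines, with a fold of 10.6 and 19 reads in EpiSCs (chr17:29494239-29494925) and 11.9 and 25 reads in kEpiSCs (chr17:29494237-29494727), the highest kEpiSC fold at any member. Its AP-1 site TGAGTCA lay 204 bp from the EpiSC summit. The counting intervals were 6.58 to 16.2 and 7.90 to 17.3.

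Upstream of Pim1, within introns of the noncoding gene Gm26885, the highest EpiSC peak at this gene lay 4751 bp from the TSS with a fold of 12.2 and 17 reads (chr17:29485963-29486105) and TGAGTCA 1 bp from its summit. No kEpiSC peak overlapped it. A peak 31049 bp upstream was shared, with a fold of 7.41 and 13 reads in EpiSCs and 3.95 and 14 reads in kEpiSCs, where the background was again 4.72 times the genome-wide level. It held the STAT match TTCAAGGAA. EpiSC peaks with folds of 4.79 and 6.17 lay 13216 and 39339 bp upstream, the former with an octamer match just outside the peak, and another downstream of the gene had a fold of 7.53. The kEpiSC list added a peak 43310 bp upstream with a fold of 6.69 and 11 reads (chr17:29447416-29447534) that held TGACTCA 38 bp from its summit. Just outside the 50 kb limit, a shared peak 56.0 kb from Pim1 had folds of 10.1 in EpiSCs and 5.97 in kEpiSCs, whereas at the other members the nearest unassigned peak of either list lay 89.4 kb or more from a TSS.

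Of the 32 EpiSC peaks at the members, 10 overlapped a kEpiSC peak (31.2%, 95% Wilson interval 18.0 to 48.6%), against 28.3% of all EpiSC peaks. Of the 14 kEpiSC peaks, 10 overlapped an EpiSC peak (71.4%, 45.4 to 88.3%), against 75.8% of all kEpiSC peaks. Every member with a peak had at least 1 shared region, with 4 at Socs3, 2 at Pim1 and 1 each at Lifr, Il6st, Jak1 and Stat3. The shared EpiSC peaks had a median fold of 8.07 (n = 10), against 5.56 for those absent from the kEpiSC list (n = 22). Among the latter were the strong peaks at Stat3 (16.4) and Pim1 (12.2). In the whole EpiSC list, 40.3% of peaks at or above the median fold overlapped a kEpiSC peak, against 14.1% of those below it. At the members these were 7 of 17 and 3 of 15. The 4 kEpiSC peaks without an EpiSC counterpart, at Il6st, Stat3, Socs3 and Pim1, had folds of 5.60 to 7.09.

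At the 10 shared regions the fold was higher in kEpiSCs at 6 (Lifr, all 4 at Socs3 and Pim1 intron 5) and higher in EpiSCs at 4 (Il6st, Jak1, Stat3 and the distal Pim1 region). The counting intervals of the fold overlapped at all 10, which is no test of the difference. The fold is the scaled reads over the background, with 1 added to each. At Jak1, Stat3 and the distal Pim1 region the reads at the summit differed by at most 1 between the lines. The kEpiSC background there was 4.72 times the genome-wide one. It was solved as 2 reads at each of these regions, and its own counting error is not in the intervals. At all 6 regions with the higher fold in kEpiSCs, the background relative to the genome-wide level was higher in EpiSCs, as it was at Il6st, where the EpiSC fold was the higher one. A background of at least 4 times the genome-wide level was found at 6.66% of all kEpiSC peaks. Within its own list, 1 kEpiSC ChIP read counted as 0.775 in the pileup and 1 EpiSC read as 1. Depth per library is unknown, so the read numbers of the lines were not brought to a common depth.

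**Figure D3:**
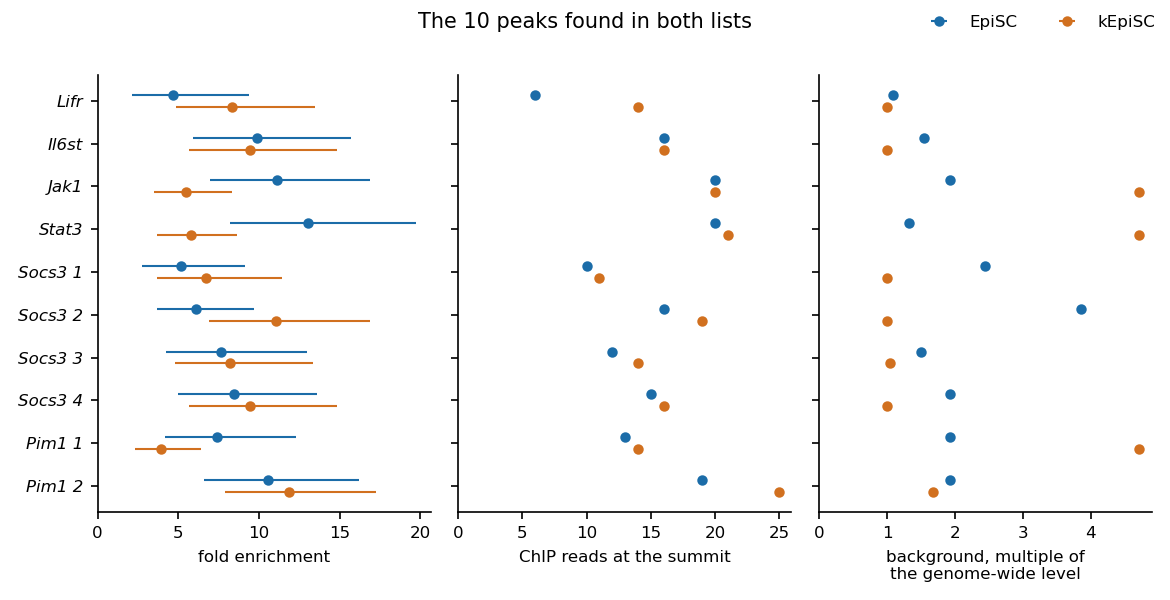
Rows are the 10 regions with a peak in both lists, in order of position within Socs3 and Pim1. The x axes are the fold enrichment with its 95% Poisson counting interval (left), the number of ChIP reads at the summit (middle) and the background as a multiple of the genome-wide level (right), for EpiSCs in blue and kEpiSCs in orange. The Jak1, Stat3 and first Pim1 regions have a kEpiSC background of 4.72 with similar reads in both lines.

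An exact AP-1 site lay in the central 200 bp of 10 of the 32 EpiSC peaks at the members (31.2%, Wilson interval 18.0 to 48.6%). The share was 45.9% in all EpiSC peaks and 4.02% in flanks 2 kb away. In kEpiSCs it was 7 of 14 (50.0%, 26.8 to 73.2%) against 58.5% in all kEpiSC peaks and 4.09% in flanks. The intervals of the members thus included the share of the whole list in both lines and lay above the flanks. By gene, EpiSC peaks with the site were 4 at Socs3, 2 at Stat3, 2 at Pim1, 1 at Il6st and 1 at Jak1. The 11 sites in these 10 peaks lay at a median of 23 bp from the summit, and 8 were within 40 bp. With 1 changed base allowed, 19 of 32 EpiSC peaks (59.4%, 42.3 to 74.5%) had a match, against 78.3% of all EpiSC peaks, and the list's share lay above this interval. In kEpiSCs 13 of 14 peaks had such a match, against 86.4% of the list. The share of flanks with such a match was not computed.

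Among the EpiSC peaks at the members, the AP-1 site was found in 8 of 17 with a fold at or above the list median (47.1%, 26.2 to 69.0%) and in 2 of 15 below it (13.3%, 3.74 to 37.9%). These intervals overlapped. In the whole list the shares were 55.8% and 34.1%. At the members it was found in 5 of the 10 shared EpiSC peaks and in 5 of the 22 others. The same split of the whole list was not computed, so these counts have no share of all peaks beside them.

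The motif of the Stat proteins, TTCNNNGAA, was searched in the same windows since these genes form the Stat3 pathway. It was found in 4 of 32 EpiSC peaks, 1 each at Lifr, Il6st, Socs3 and Pim1 (12.5%, 4.97 to 28.1%), against 5.83% of all EpiSC peaks and 5.81% of flanks. In kEpiSCs 3 of 14 had it, at Il6st, Socs3 and Pim1 (21.4%, 7.57 to 47.6%), against 6.38% of the list and 5.64% of flanks. The EpiSC interval included the shares of the list and of the flanks, and the kEpiSC interval lay above both by little, on 3 peaks. The Klf motif GGGNGTGG was found in 4 EpiSC peaks, 2 at Stat3 and 2 at Socs3 (12.5%, 4.97 to 28.1%), against 9.20% of the list, and in 2 kEpiSC peaks, 1 at each of these genes (14.3%, 4.01 to 39.9%), against 8.95%. The octamer ATGCAAAT, bound by Oct4, was found at 1 of 32 EpiSC peaks, against 1.34% of the list and 1.18% of flanks. It was found at no kEpiSC peak, against 1.13% of the list. The 200 bp window reached past the ends of 12 EpiSC and 7 kEpiSC member peaks, and the octamer match and 1 Klf match in each line lay at least partly outside their peak, whereas all AP-1 and STAT matches lay inside. No member peak held the related CRE site TGACGTCA, which was found in 2.13% of all EpiSC peaks and 2.40% of all kEpiSC peaks.

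**Figure D4:**
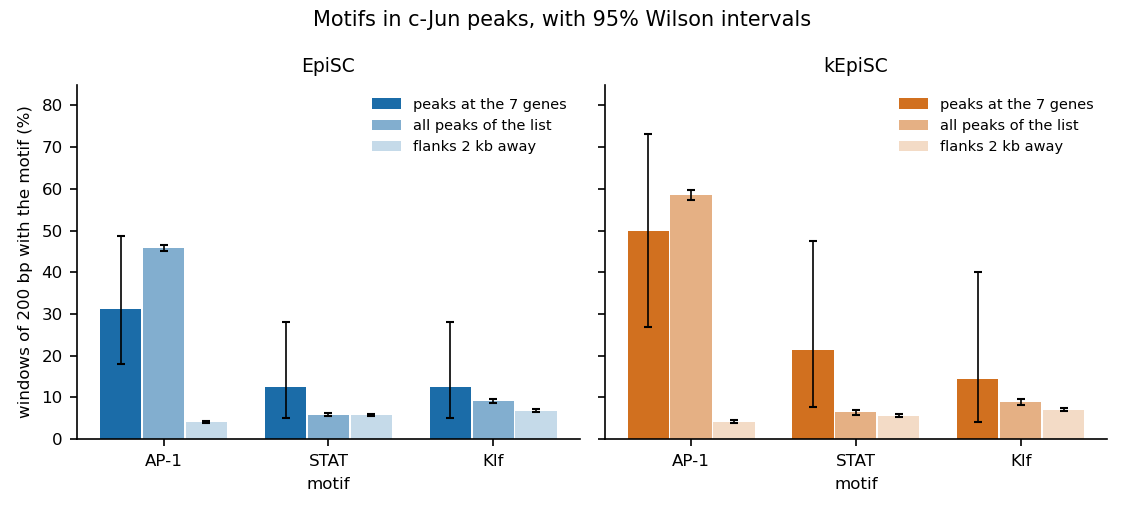
The y axis is the percentage of 200 bp windows with an exact match to the AP-1, STAT or Klf motif in EpiSCs (left) and kEpiSCs (right), for peaks at the 7 genes, all peaks of the list and flanks 2 kb away, with 95% Wilson intervals. AP-1 stands at 31.2% and 50.0% at the 7 genes against 4.02% and 4.09% in the flanks, and the intervals of the 7 genes are wide for every motif.

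Of 45 other genes of the pathway, 36 had a c-Jun peak by the same rule in EpiSCs, against 52.8% of all protein-coding genes, and 23 in kEpiSCs, against 28.7%. Within 10 kb of a TSS, 17 and 6 of them had one, against 21.8% and 8.27% of all genes. Genes that lie close together can share a peak, so these counts are not independent. The ligands had a peak at 5 of 7 genes in EpiSCs and 3 of 7 in kEpiSCs. The highest EpiSC folds were at Clcf1 (14.3), at Lif itself (12.4) and at Osm, the gene of oncostatin M (10.3), and these 3 genes also had kEpiSC peaks, with folds of 10.6, 11.1 and 6.31. The peak at Clcf1 lay nearer to Pold4.

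The other receptor chains had a peak at 3 of 4 genes in EpiSCs and 2 of 4 in kEpiSCs, led by Cntfr (8.89), Il11ra1 (6.90) and Il6ra (6.41) in EpiSCs, and Cntfr and Il6ra were those with a kEpiSC peak (10.5 and 8.64). The other Jak kinases had a peak at 2 of 3 in EpiSCs, Jak2 (8.90) and Tyk2 (6.53), and at Jak2 in kEpiSCs (9.80). The EpiSC and kEpiSC folds given for Il6ra belong to different regions, as do those given for Jak2. Of the other Stat genes, 4 of 6 had a peak in both lines, with EpiSC and kEpiSC folds of 10.3 and 5.60 at Stat4, 9.52 and 11.6 at Stat2, and 7.29 and 5.24 at a single region within reach of both Stat5a and Stat5b. None of the other Jak or Stat genes had a peak within 10 kb of a TSS.

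The inhibitors and phosphatases, the group with the most genes, had a peak at 13 of 14 in EpiSCs and 7 of 14 in kEpiSCs. Of all protein-coding genes, 52.8% and 28.7% had one. The highest folds were at Socs1, another feedback inhibitor of Jak kinases (23.9 in EpiSCs and 21.4 in kEpiSCs), at Pias2 (10.3, with no kEpiSC peak) and at Socs2 (10.1 and 13.8). Socs4, Socs5, Socs7, Pias4 and Ptpn6 also had a kEpiSC peak, with folds of 4.98 to 10.5. Among the targets of the pathway in embryonic stem cells, 9 of 11 had a peak in EpiSCs and 6 of 11 in kEpiSCs. The highest EpiSC folds were at Klf5 (16.0), Klf4 (11.9) and Junb (10.8), with kEpiSC folds of 14.1, 8.87 and 9.89. Mcl1 had the most peaks of these genes, 11 in EpiSCs and 7 in kEpiSCs, and Tbx3 had 8 and 2. Of all protein-coding genes, 0.6% had as many as Mcl1 in EpiSCs and 0.195% in kEpiSCs. For Tbx3 these shares were 1.59% and 10.3%. The highest peaks at Mcl1 and at Junb lay nearer to another gene in both lists. Tfcp2l1, a naive state transcription factor, had a peak in kEpiSCs alone (6.07).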

How the data were processed

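ChIP-seq reads of 8 libraries were mapped to mm10 by the authors (Bowtie2, unique reads only), and MACS2 with default settings gave the peaks. No tool version is given in the sources used here. Read length is 75 bp in the methods and 50 bp in the labels. The deposited lists hold, for each peak, a score made from the q-value, a fold (ratio of ChIP to local background, with 1 added to each), the −log10 of the p-value and the summit position, and a −log10 q-value that was not used. Depth per library is unknown.

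The deposited fold and p-value were solved for a whole number of ChIP reads and a background, with a solution for 100% of peaks. More than 1 solution existed for 4.99% of EpiSC and 5.74% of kEpiSC peaks, 2 member peaks among them (Socs3, 6 reads, and Pim1 intron 5 in kEpiSCs, 25 reads), where the genome-wide background, or else the solution nearest to a whole number, was preferred. Exact Poisson intervals (95%) of the reads gave those of the fold, with the background held fixed. Peaks were placed on curated RefSeq transcripts of GRCm38.p6, the assembly of mm10. Lists shared a peak at 1 bp of overlap. Motifs were searched on both strands.

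The members and lists were chosen with earlier results of these data known. The text names all members, in each group of other pathway genes the 3 with the highest EpiSC fold, every such gene with a kEpiSC peak, and genes with a TSS nearer to a member peak. A gene of the pathway list is not reported here and is left out of its counts. The calculation was tested on simulated data. The alternatives covered distance, gene assignment, score, annotation, peak position, overlap and motif. Calculations were made in Python 3.11.15 with scipy 1.17.1, and genome windows were read with samtools 1.23.1 and pysam 0.24.0.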

Additional observations from a re-analysis of the deposited data

How the results depend on the processing

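Of 64 alternative values, 42 stayed close to the reported one (counts within 1.5 times, the median fold within the quartiles of the member peaks) and 22 moved. Within 10 kb of a TSS, the member peaks numbered 7 in EpiSCs and 2 in kEpiSCs, at 4 and 2 members, with 2 EpiSC peaks shared and an AP-1 site in 2 and 1. In the gene body alone they numbered 3 and 2, at 3 and 2 members, with 2 shared, an AP-1 site in 2 and 1, and a median EpiSC fold of 10.6. Counting a peak for a member only where that member had the nearest TSS left 9 kEpiSC peaks, and an AP-1 site in 6 EpiSC and 3 kEpiSC peaks. Among peaks above the median score of their list, 17 EpiSC and 6 kEpiSC peaks were left, 3 of the latter with an AP-1 site. With 1 mismatch allowed, 19 and 13 peaks had an AP-1 site. These alternatives count fewer peaks, or more matches, by construction. Within 100 kb the peaks numbered 40 and 17, and Osmr still had none. No paired analysis was possible because only 1 peak list exists for each line, without replicate values, which also leaves no replicate to omit. The EpiSC member peaks rest on 6 to 23 reads, which limits the precision of every fold.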
